A study of Mus musculus with 2 samples.

Results

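The cornified envelope genes described here are 48 of the 32285 genes counted. The rule goes by gene symbol and takes in the 15 genes whose symbol starts with Sprr, the 21 that start with Lce, and 12 others, namely Lor, Ivl, Flg, Flg2, Hrnr, Cdsn, Evpl, Ppl, Casp14, Klk5, Klk7 and Spink5. Their transcripts were counted in single cells from the dorsal skin of male C3H/HeN mice that had been shaved at 7 weeks of age and were 9 weeks old at collection. The control group (Con) received vehicle, and the model of androgenetic alopecia (TP) received 0.5 mg of testosterone propionate per day under the skin. Another group, which received TP and an antibody against CXCL12, is not analysed here. Each group is 1 library, made from collagenase-digested skin of 15 mice that had been pooled. Differences between mice therefore cannot be seen, and every interval below covers counting error only, at a level of 95%.

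Keratinocytes of the epidermis divide in the basal layer, move up through the spinous and granular layers, and end as flat dead cells. In the granular layer a shell of cross-linked protein, the cornified envelope, replaces the cell membrane. Envoplakin and periplakin, with involucrin, form its first scaffold, and loricrin, the small proline-rich proteins (Sprr) and the late cornified envelope proteins (Lce) are then joined to it by transglutaminases. Filaggrin packs the keratin filaments inside, corneodesmosin holds the dead cells together, and kallikrein proteases under the control of the inhibitor LEKTI, the product of Spink5, later release them. Hair follicles have layers of their own that cornify, among them the inner root sheath and the upper follicle that opens to the surface.

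After filtering, 39076 Con cells and 18542 TP cells were kept, with medians of 2055 and 4898.5 molecules (unique molecular identifiers, UMIs) per cell and totals of 107580194 and 134622419 UMIs. Of the 45709 Con and 25931 TP barcodes, 7.58% and 22.6% had been left out for a mitochondrial share above 10%. The libraries had 303 cell barcodes in common, of 71640 in all. Cells were grouped into 30 clusters without use of the 48 genes, and clusters were named from marker lists, with "-like" as a reminder that names rest on RNA alone. Levels are given as UMIs per 1000000 UMIs of the cells in question (CPM), and the 3′ chemistry counts transcript ends, so levels are not scaled by gene length.

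Interfollicular cells above the basal layer formed 3 suprabasal-like clusters, with 3675 Con and 4703 TP cells, or 9.405% and 25.4% of the kept cells. The cluster with the highest score for granular layer markers (Calm4, Calm5, Cnfn, Nccrp1, Dsc1, Slurp1, Abca12 and Alox12b) is called the upper suprabasal-like cluster, and the other two are the lower suprabasal-like clusters. The upper cluster held 1260 Con and 1749 TP cells, with medians of 7916 and 14905 UMIs per cell. The upper hair follicle-like cluster, marked by Krt79 and Defb6, made up 2.71% and 7.58% of the cells. Inner root sheath-like cells went the other way, with 36.8% of Con and 8.83% of TP cells. Whether such shares come from the skin, the digestion or the library cannot be told apart with 1 library per group. In a finer clustering (resolution 2), only 507 Con and 770 TP cells were named upper hair follicle-like. Another 575 Con and 649 TP cells, led by Lrig1 and Ccl27a, were named sebaceous-like there, and Ccl27a also led the upper hair follicle-like cluster used here. That cluster may thus include sebaceous-like cells, and their part in its levels below was not tested.

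The border of the upper cluster was not stable. When the same clustering was started from other random seeds, a group of deeply sequenced cells with lower granular scores (679 Con and 313 TP cells, subcluster 26 of a finer clustering) joined the upper cluster in some runs and a lower one in others. Of its Con cells, 85.6% lay in the upper cluster as used here, and 0.295%, 95.7% and 0.295% did with the 3 other seeds. These cells were a larger part of the upper cluster in Con than in TP. Levels are therefore compared mainly over all suprabasal-like cells together and in the finer subclusters. The shares of cells with a transcript and the spread over single cells are given for the upper cluster as drawn here, and the ratio of the 48 genes in the upper cluster is given with its range over the other clusterings.

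Of the 48 genes, 16 had at least 200 UMIs over both libraries together, 24 had fewer but at least 1 (median 12.5, highest 141), and 8 had none. The 8 without a UMI were Sprr2k, Lce1g, Lce1h, Lce1j, Lce1k, Lce3b, Lce3e and Lce3f. A count of 0 over a whole library allows a level of up to 0.0279 CPM in Con and 0.0223 CPM in TP, taking 3 UMIs as the limit. The late cornified envelope genes were almost absent. All 21 together had 39 UMIs in Con and 260 in TP, which is 0.363 and 1.93 CPM, and the most for a single gene was 25 UMIs in Con and 69 in TP. Each of the 24 sparse genes had more UMIs in TP than in Con, and 13 of them had none in Con, where 44.1% and 10.9% of all 11434 such genes did, although for Lce1c the CPM did not follow (4 and 5 UMIs).

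Most of the genes lie side by side. RefSeq places 41 of the 48 on chromosome 3 of GRCm38.p6, from Lor at 92080271 to the end of Hrnr at 93333572, a stretch known as the epidermal differentiation complex. Klk7 (43811294 to 43816387) and Klk5 (43834157 to 43851181) are neighbours on chromosome 7. The others are scattered, with Casp14 on chromosome 10, Evpl on 11, Ppl on 16, Cdsn on 17 and Spink5 on 18. Some of the family members are too alike to be counted apart. In the last 500 bases of their GENCODE transcripts, all windows of 90 bases of Sprr2a1 and of Sprr2a2 occurred unchanged in another Sprr2a gene, and 42.3% of those of Sprr2a3 did. Lce3c, Lce3d, Lce3e and Lce3f shared 29.9% to 38.2% of their windows with each other or with Lce3a and Lce3b. Counts of these genes are uncertain. Of the 16 genes with at least 200 UMIs, only Sprr2a3 had a shared window.

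Motifs were looked for just before the start sites. In RefSeq windows from 250 bases before to 50 bases after the start, available for 43 of the 48 genes, the AP-1 motif TGANTCA, read on both strands, was present in 13 genes, against 7.81% of all 32851 windows. Of these 13 genes, 7 were Sprr2 genes, close relatives of each other, and none was an Lce gene. The TATA box TATAAA, read on both strands, was present in 18 of the 43, against 13.6% of all windows. Among the 13 abundant genes with a window, Lor, Ivl, Sprr1a, Sprr1b, Sprr2h and Flg had both motifs, Flg2 had only TGANTCA, Hrnr had only TATAAA, and Casp14, Cdsn, Klk5, Klk7 and Sprr2a3 had neither. A match describes the letters only, not a site in use. Other motifs were rarer in the 43 genes. The KLF motif GGGTGTGG was found in 2 (3.56% of all windows), TTGCNNAA of C/EBP in 6 (10.8%), GCCNNNGGC of TFAP2 in 2 (16.6%) and AACCNGTT of GRHL in 0 (2.09%). The 160 bases before the start of 5 abundant genes of the complex are shown, 5′ to 3′ on the strand of the gene. Lor, Sprr1a and Flg were taken because they were among the 5 abundant genes with the largest differences between the libraries. Flg2 and Hrnr were taken as relatives of Flg that have no exact match to 1 of the motifs each. Similar letters that are not an exact match were not counted. Capitals mark matches to the AP-1 and TATA motifs, which did not overlap. Sequences are those of RefSeq, on GRCm38.p6. Lor at chr3:92083143-92083302 and Sprr1a at chr3:92485882-92486041 are on the minus strand, and Flg2 at chr3:93197113-93197272, Flg at chr3:93273386-93273545 and Hrnr at chr3:93319589-93319748 are on the plus strand.
Lor: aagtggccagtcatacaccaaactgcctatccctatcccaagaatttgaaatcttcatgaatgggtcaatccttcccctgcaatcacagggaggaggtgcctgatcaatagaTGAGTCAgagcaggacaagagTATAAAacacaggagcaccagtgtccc
Sprr1a: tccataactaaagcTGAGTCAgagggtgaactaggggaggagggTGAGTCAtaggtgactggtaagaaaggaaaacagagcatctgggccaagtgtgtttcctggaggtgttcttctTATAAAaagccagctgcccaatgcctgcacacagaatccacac
Flg2: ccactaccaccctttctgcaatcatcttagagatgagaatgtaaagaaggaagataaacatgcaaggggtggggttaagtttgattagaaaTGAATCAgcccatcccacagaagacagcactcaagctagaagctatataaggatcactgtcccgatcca
Flg: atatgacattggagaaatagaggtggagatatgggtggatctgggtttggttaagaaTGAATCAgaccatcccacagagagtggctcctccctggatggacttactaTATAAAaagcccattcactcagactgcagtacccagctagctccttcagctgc
Hrnr: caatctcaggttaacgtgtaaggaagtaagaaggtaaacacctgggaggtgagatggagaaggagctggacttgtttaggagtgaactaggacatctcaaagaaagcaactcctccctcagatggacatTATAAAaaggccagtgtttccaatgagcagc
Counted back from the start, the AP-1 motif of Lor began at -48 and its TATA box at -27. In Sprr1a the AP-1 motif occurred at -146 and again at -116. Those of Ivl, Sprr1b, Flg and Flg2 began at -116, -111, -103 and -69. The TATA box of Hrnr began at -31 and that of Flg at -53.

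The cells that held these transcripts are described first. The 48 genes together accounted for 3229 CPM in Con and 7875 CPM in TP cells of the upper suprabasal-like cluster. The upper hair follicle-like cells had 2302 and 4304 CPM, and the lower suprabasal-like clusters 875 and 1386 CPM. Dermal papilla-like cells, which do not cornify, gave a measure of free RNA in the droplets, with 176 CPM in Con and 262 CPM in TP. Endothelial-like cells had 225 and 443 CPM from 73 and 330 UMIs. Suprabasal-like cells as a whole contained 53.1% of all UMIs of the 48 genes in Con and 79.7% in TP.

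**Figure D1:**
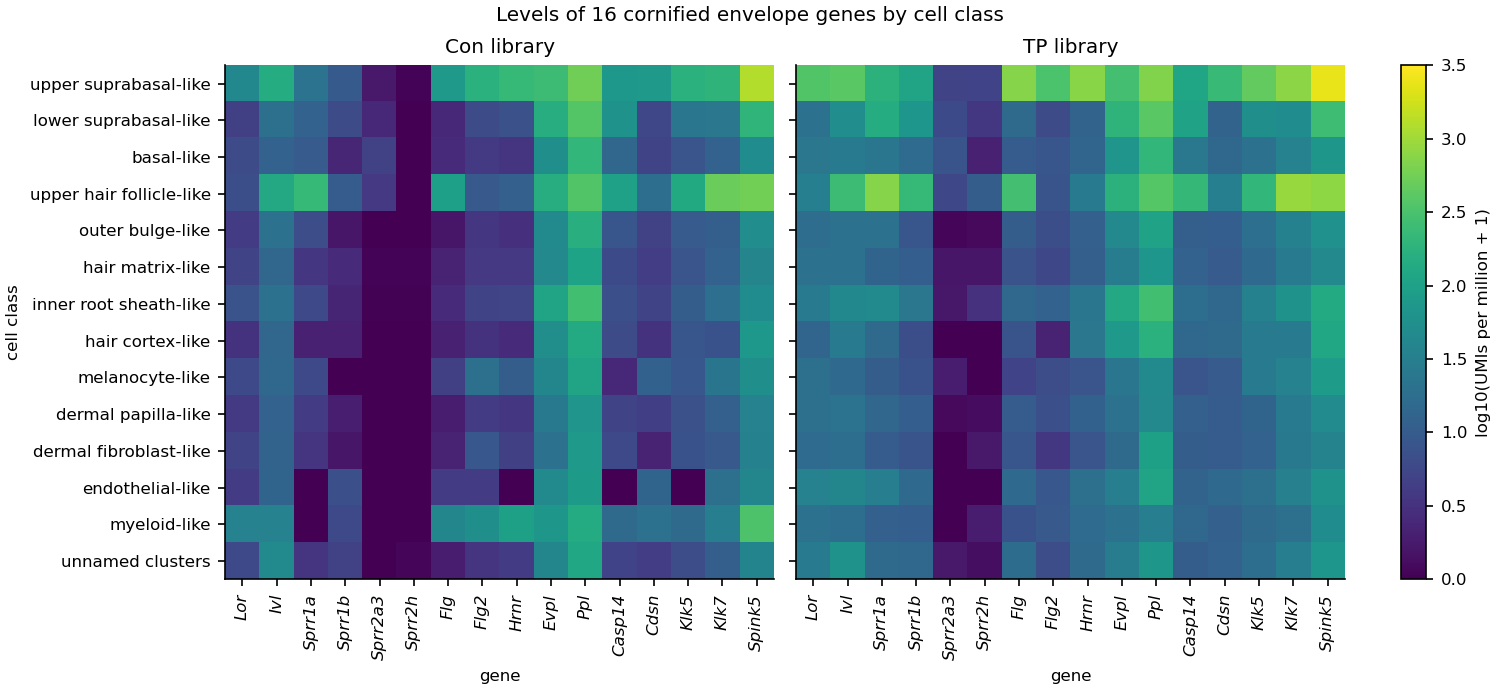
Levels of the 16 genes with at least 200 UMIs in each cell class (rows) of the Con library (left) and the TP library (right), as log10 of CPM plus 1. Flg2 and Hrnr are brightest in the upper suprabasal-like row (171 and 218 CPM in Con), Sprr1a and Klk7 are brightest in the upper hair follicle-like row (222 and 496 CPM in Con), and Evpl and Ppl are visible in most keratinocyte rows.

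The 16 abundant genes fell into distinct patterns across the classes. Lor, Flg2, Hrnr and Cdsn had most of their UMIs in suprabasal-like cells and little in the upper hair follicle. Flg2 had 84.8% of its Con UMIs and 94.7% of its TP UMIs there, and Hrnr had 87.5% and 94.96%. Lor had 51.2% in Con and 85.5% in TP, and Cdsn 69.8% and 86.3%. In the upper hair follicle-like cells, Flg2 stood at 8.37 CPM in Con and 7.11 CPM in TP, against 3.19 and 6.16 CPM in the dermal papilla-like cells. Lor was at 5.93 CPM in Con and 30.98 CPM in TP in these follicle cells, and the endothelial-like TP cells had 34.9 CPM of Lor.

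A second group was also present in the upper follicle, although Spink5, Flg and Klk5 had 73.4%, 68.9% and 66.2% of their Con UMIs in suprabasal-like cells, more than Lor. Flg, for filaggrin, was at 46.8 CPM in the suprabasal-like and 93.1 CPM in the upper hair follicle-like Con cells, and in TP at 439 and 285 CPM. Subcluster 18, the suprabasal-like subcluster with the highest granular score (310 Con and 1007 TP cells), had 133 and 933 CPM. In the follicle cells Flg came from few cells, as 2.74% of the Con cells had a UMI of it and the highest of them had 66 of its 267 UMIs. The protease gene Klk7 was at 496 CPM in the follicle cells of Con, above the 123 CPM of all suprabasal-like cells and the 422 CPM of subcluster 18. In TP these levels were 913, 481 and 999 CPM. Casp14, whose product takes part in the breakdown of filaggrin, was higher in the follicle cells than in subcluster 18 in TP (214 against 125 CPM). In Con its levels were close, at 100.5 against 87.96 CPM, and 53 cells held 66.0% of its 288 UMIs in the follicle cells. Ivl, Klk5 and Spink5 were lower in the follicle cells than in subcluster 18, at 129.8, 133 and 568 CPM against 296, 349.7 and 2159 CPM in Con. Of Flg and these 5 genes, Klk7 had the largest part of its UMIs in the upper hair follicle-like cells, 29.5% in Con and 21.5% in TP.

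The Sprr genes had a pattern of their own. In Con, Sprr1a was highest in the upper follicle, with 49.3% of its UMIs and 222 CPM there, against 16.8 CPM in the suprabasal-like cells. Sprr1b was low in both in Con, at 9.42 and 7.49 CPM. Sprr2a3, which cannot be fully separated from Sprr2a1 and Sprr2a2, had 49.1% of its 57 Con UMIs and 26.1% of its 410 TP UMIs in basal-like cells, unlike the other abundant genes. Sprr2h had 6 UMIs in Con and 319 in TP. The plakin genes were the most widespread. Inner root sheath-like cells held 32.5% of the Evpl and 32.3% of the Ppl UMIs of Con, at 109 and 273 CPM, where the dermal papilla-like cells had 24.7 and 66.1 CPM.

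**Figure D2:**
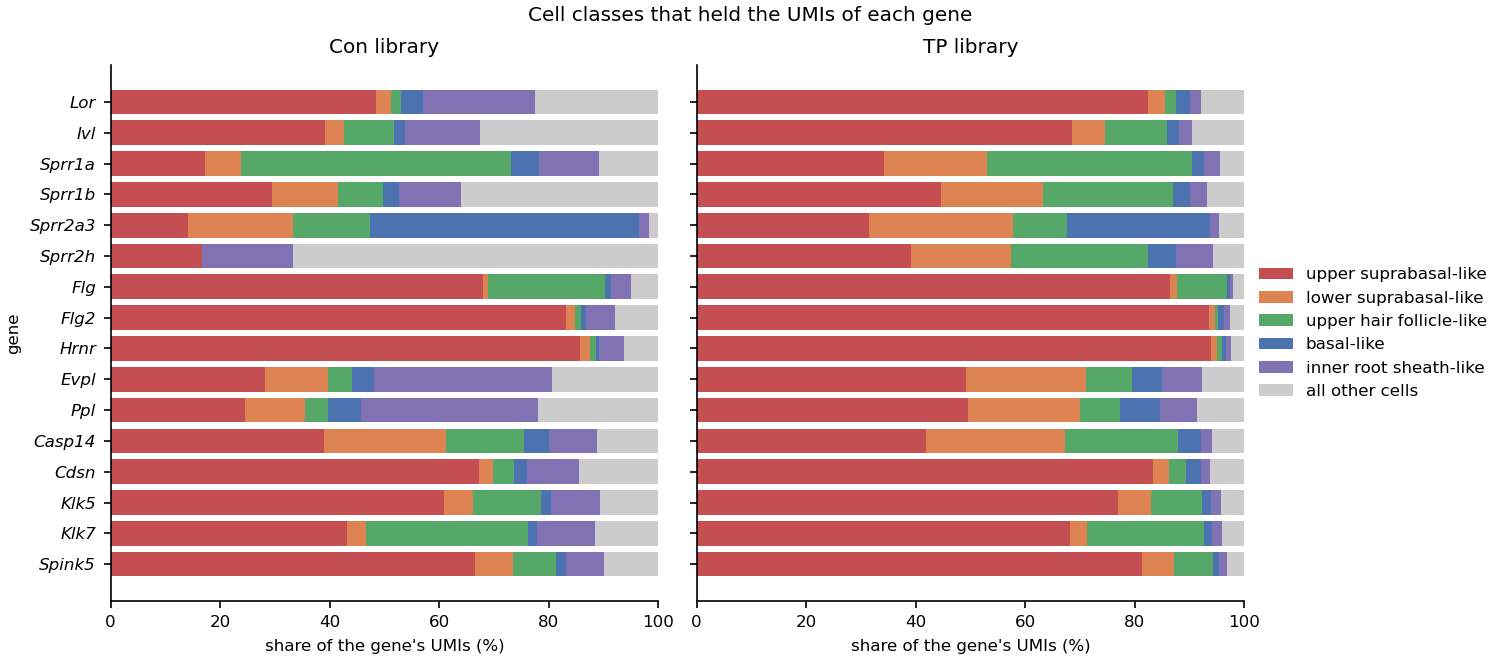
Share of the UMIs of each gene (x axis, %) held by each cell class (colours) in the Con library (left) and the TP library (right). Hrnr and Flg2 lie mostly in the upper suprabasal-like cluster, the largest part of Sprr1a lies in upper hair follicle-like cells in Con (49.3%) and in suprabasal-like cells in TP (53.01%), and the inner root sheath-like part of Evpl is 32.5% in Con and 7.23% in TP.

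Outside the named epidermal classes, cluster 17, led by Gpnmb, Soat1 and Kitl and left without a name, held Ivl at 182 CPM in Con (718 UMIs) and 316 CPM in TP (848 UMIs), well above the dermal papilla-like level of 11.5 and 20.7 CPM. The same cluster had Sprr1b at 18.03 CPM in Con, more than any of the 3 suprabasal-like clusters there, and at 47.4 CPM in TP.

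Over all kept cells, the 48 genes together were 3.48-fold higher in TP than in Con (3.45 to 3.503), at 2543 against 732 CPM. A few abundant genes weigh heavily in this sum. Ppl, Spink5 and Evpl were at 226, 190.4 and 89.4 CPM in Con. The Sprr and Lce genes with Lor, Ivl, Flg, Flg2 and Hrnr were at 122 CPM together. In TP these levels were 313, 692, 133 and 880 CPM. A minimum of 50 UMIs was met by 20 of the 48 genes. The count at or above a 2-fold difference in favour of TP was 17 of these, and 0 were at least 2-fold lower, where 8.27% of all 17583 genes with that minimum were higher and 10.4% were lower. No test stands behind these counts, since each group is 1 library, and genes that pass the minimum through 1 library alone had to differ. The median log2 ratio of the 20 genes was 2.54, and that of all genes -0.23. Evpl, Ppl and Lce6a were the genes of the 20 that stayed below 2-fold, at 1.49, 1.38 and 1.66-fold.

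Among the envelope precursors were the largest differences. Sprr1b was at 3.07 CPM in Con and 57.03 CPM in TP, a ratio of 18.6 (16.7 to 20.8). Flg was at 11.6 and 194 CPM, a ratio of 16.8 (15.9 to 17.8). Lor was at 8.85 and 98.9 CPM, a ratio of 11.2 (10.5 to 11.9), and Sprr1a, at 12.01 and 120.2 CPM, had a ratio of 10.00 (9.45 to 10.6). The precursors were not alike, as Flg2 and Ivl had ratios of 3.75 (3.59 to 3.93) and 3.56 (3.44 to 3.69). Hrnr, at 25.9 CPM in Con and 186 CPM in TP, had a ratio of 7.18. The genes of cell shedding lay between Sprr1a and Ivl. Klk7 had a ratio of 5.85 (5.67 to 6.03), Cdsn of 5.23 (4.93 to 5.55), Klk5 of 4.79 (4.61 to 4.98) and Spink5 of 3.63 (3.58 to 3.69). Spink5, at 190.4 CPM in Con and 692 CPM in TP, had more UMIs than any other of the 48 genes in TP. Sprr2h had the highest ratio, 42.5, but with 6 UMIs in Con its interval ran from 19.3 to 117.

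The libraries differed in which cells they held, and so the ratios over all cells mix the shares of cells with the levels inside them. When every cluster was given its Con share of UMIs in both libraries, the ratio for the 48 genes together was 1.96, and with TP shares it was 2.13. The shares alone, with Con levels kept in every cluster, gave a ratio of 1.63. Over the 48 clusters of the finer clustering, these values were 1.51, 1.62 and 2.15. For Lor, Flg, Sprr1a and Sprr1b the levels inside the clusters carried more of the difference than the shares did at both resolutions. At the finer one, their ratios were 4.53, 4.696, 4.84 and 9.203 at Con shares, and 2.598, 2.99, 2.03 and 1.65 from the shares alone. For Flg2 and Spink5 the part of the shares was the larger one at both, with 3.36 and 2.76 against 1.15 and 1.34 at the finer one. For Hrnr, Klk5, Klk7, Cdsn and Ivl the larger part depended on the resolution. Their ratios at Con shares over the 30 clusters were 3.58, 2.57, 3.16, 2.97 and 2.27, above the 2.08, 1.91, 1.86, 1.84 and 1.43 from the shares alone. Over the 48 they were 2.12, 1.86, 2.27, 2.06 and 1.72, below the 3.47, 2.85, 2.67, 2.99 and 2.09 from the shares. For Casp14 both parts were close, with 1.94 and 1.95 over the 30 clusters and 1.84 and 2.11 over the 48. For Evpl and Ppl almost nothing was left at Con shares (1.07 and 0.987).

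Within all suprabasal-like cells together, the 48 genes were 2.29-fold higher in TP (2.27 to 2.31). The minimum was met by 17 of the 48 genes, of which 12 reached 2-fold in favour of TP and 0 were that much lower (2.16% and 11.4% of all 12942 genes). With edgeR's TMM factors, which raised every ratio, 15 were higher and 0 lower, where 4.50% and 5.39% of all genes were. As a ratio of mean log values per cell, the difference of the 48 genes was smaller, at 1.299. The median log2 ratio of the 17 genes was 1.78 and that of all genes -0.28. In the upper suprabasal-like cluster, 12 of 17 genes were at least 2-fold higher and 0 lower, where 2.40% and 12.1% of all 11915 genes were, and 15 were higher with TMM factors (5.27% of all genes). Sprr2h, with 1 UMI in Con and 125 in TP in this cluster, met the minimum through TP alone and had to differ. Sprr2d, a sparse gene that is also among the 12, met it almost wholly through TP and had to differ too. The same holds for Sprr2h and Sprr2d over all suprabasal-like cells. The ratio for the 48 genes in the upper cluster was 2.44 (2.41 to 2.47), and 1.71 to 2.46 over the other clusterings, and fewer genes were past 2-fold in some of them.

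**Figure D3:**
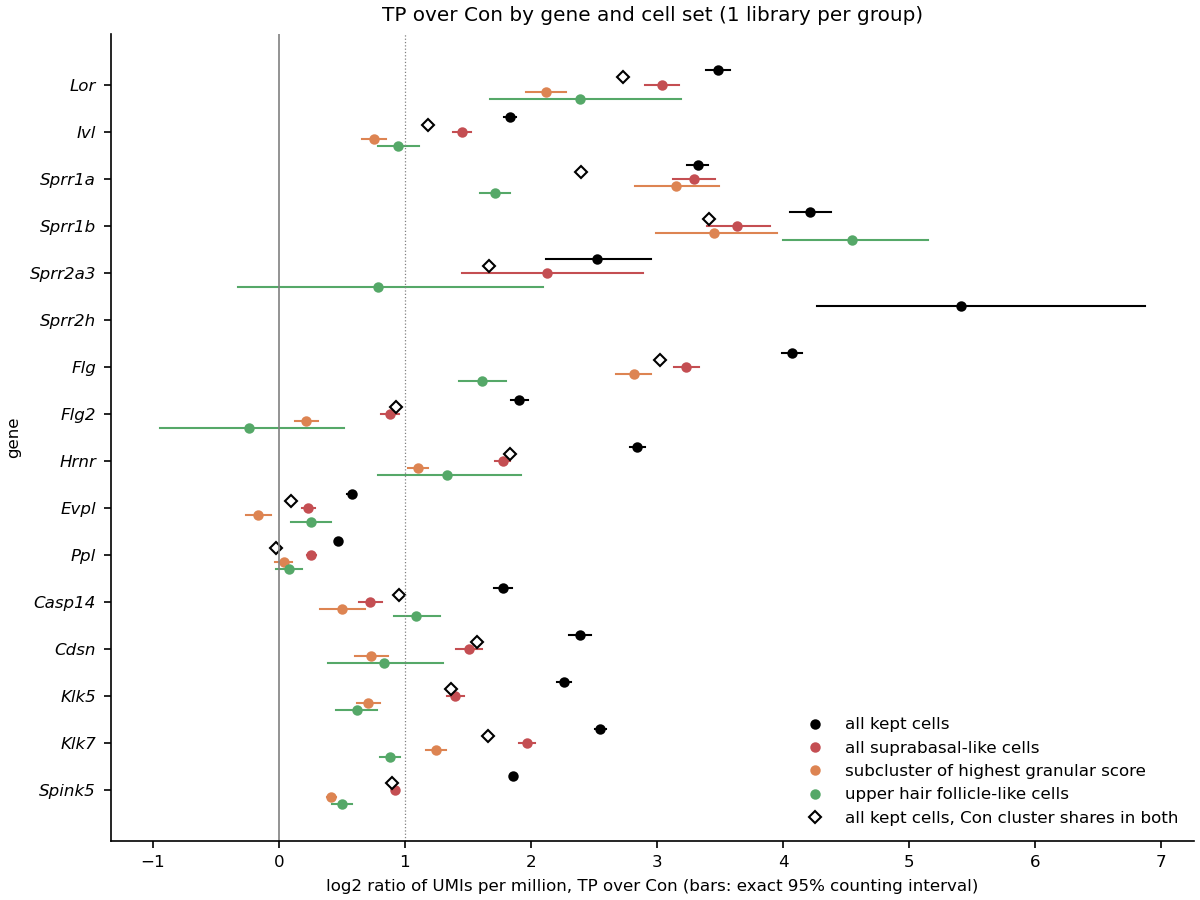
log2 ratio of TP over Con (x axis) for each gene over all kept cells (black), in all suprabasal-like cells (red), in the subcluster of highest granular score (orange) and in upper hair follicle-like cells (green), with exact 95% counting intervals, and over all kept cells with the Con shares of clusters in both libraries (open diamonds, no interval). Ratios with 3 or fewer UMIs in a library are not drawn, so Sprr2h has a value for all cells alone. Among suprabasal-like cells Sprr1b, Sprr1a, Flg and Lor lie farthest to the right, and Evpl and Ppl lie next to 0.

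In suprabasal-like cells, Lor was at 26.6 CPM in Con (487 UMIs) and 218 CPM in TP (11384 UMIs), a ratio of 8.21 (7.49 to 9.003). Flg was at 46.8 CPM in Con (856 UMIs) and 439 CPM in TP (22905 UMIs), a ratio of 9.39 (8.77 to 10.1). Sprr1a and Sprr1b, at 16.8 and 7.49 CPM in Con and 164 and 93.2 CPM in TP, had ratios of 9.804 (8.75 to 11.02) and 12.4 (10.5 to 14.9). The relatives of filaggrin differed less than filaggrin itself. Hrnr was at 133 and 457 CPM, a ratio of 3.43 (3.29 to 3.57), and Flg2 at 105 and 193 CPM, a ratio of 1.84 (1.75 to 1.93). Ivl was at 95.3 and 261 CPM, a ratio of 2.74 (2.61 to 2.88).

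Among the proteins that hold and release the dead cells, Klk7 had the largest ratio in suprabasal-like cells, 3.92 (3.76 to 4.097), from 123 CPM in Con to 481 CPM in TP. Cdsn and Klk5 had ratios of 2.84 (2.65 to 3.05) and 2.64 (2.52 to 2.76). The inhibitor gene Spink5 had a smaller one, 1.89 (1.86 to 1.93), at 822 and 1557 CPM. Casp14 was similar, at 67.7 and 112 CPM and a ratio of 1.66 (1.56 to 1.76). The plakin genes were almost level, with Evpl at 209 CPM in Con and 245 CPM in TP (a ratio of 1.18, 1.13 to 1.22) and Ppl at 472 and 565 CPM (1.197, 1.17 to 1.23).

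The make-up of the suprabasal-like cells differed between the libraries as well. Over all of them, 5 of the 8 granular markers were past 2-fold in favour of TP and 0 past it the other way, where 2.16% and 11.4% of all genes were. Their summed level was 3204 CPM in Con and 6462 CPM in TP. Cnfn, Slurp1 and Nccrp1 had ratios of 5.27, 4.21 and 4.32. The 6 basal markers summed to 4114 CPM in Con and 2665 CPM in TP. In the upper cluster, whose border was not stable, they summed to 4283 and 1855 CPM, and in the lower clusters to 3860 and 3843 CPM. The 7 suprabasal markers summed to 40013 and 65485 CPM. The 6 upper hair follicle markers summed to 478 CPM in Con and 1031 CPM in TP, and the 6 dermal fibroblast markers to 76.8 and 169.8 CPM. The 6 inner root sheath markers summed to 1112 CPM in Con and 318 CPM in TP, and the 5 endothelial markers to 1.91 and 1.803 CPM. The 5 cell cycle markers, all past 2-fold lower, summed to 292 CPM in Con and 74.2 CPM in TP, the 6 outer bulge markers to 807 and 311 CPM, and the 5 melanocyte markers to 119.9 and 37.6 CPM. The part of these markers and cells in the differences of the envelope genes was not tested.

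The finer clustering split the suprabasal-like cells into 7 subclusters, which can be put in the order of their granular scores. Subcluster 18 had the highest score. Below it came a small one, subcluster 46 (73 Con and 58 TP cells), and then subcluster 31 (353 Con and 480 TP cells). In each clustering other than the finer one itself, at least 90.6% of the cells of subclusters 18 and 31 lay in the upper cluster, and in the finer one subcluster 18 alone counts as upper. In subcluster 18 the ratios were smaller than in all suprabasal-like cells, and the precursors kept their order. Flg had a ratio of 7.03 (6.39 to 7.76), Lor of 4.34 (3.899 to 4.84), Hrnr of 2.15 (2.04 to 2.27), Ivl of 1.69 (1.58 to 1.81) and Flg2 of 1.16 (1.09 to 1.24). Klk7, Cdsn, Klk5 and Spink5 had ratios of 2.37, 1.66, 1.64 and 1.33. Sprr1a and Sprr1b kept ratios of 8.86 (7.08 to 11.3) and 10.9 (7.94 to 15.5). Evpl was lower in TP there, at 317 and 284 CPM (0.894, 0.837 to 0.956), and the interval of Ppl included 1 (0.982 to 1.08). Calm4 and Cnfn, of the granular markers, had ratios of 1.62 and 3.08 in subcluster 18, so granular markers still differed within it.

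The genes did not follow the granular score alike. Lor, Ivl, Cdsn and Klk7 were higher in subcluster 18 than in subcluster 31 in both libraries, with Lor at 42.5 and 108 CPM in subclusters 31 and 18 of Con and 97.6 and 468 CPM in TP. Flg was at 141 and 133 CPM in Con and at 425 and 933 CPM in TP. Ppl was higher in subcluster 31 than in 18 in both libraries, at 872 against 657 CPM in Con and 934 against 675 CPM in TP. Flg2 was lower in TP in subcluster 31 (303 and 237 CPM, a ratio of 0.782, 0.698 to 0.877) and in subcluster 26 (46.9 and 29.3 CPM, 0.625, 0.513 to 0.759), and higher in subcluster 18. In the small subcluster 46, Sprr1a had 0 UMIs in Con and 71 in TP (644 CPM).

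**Figure D4:**
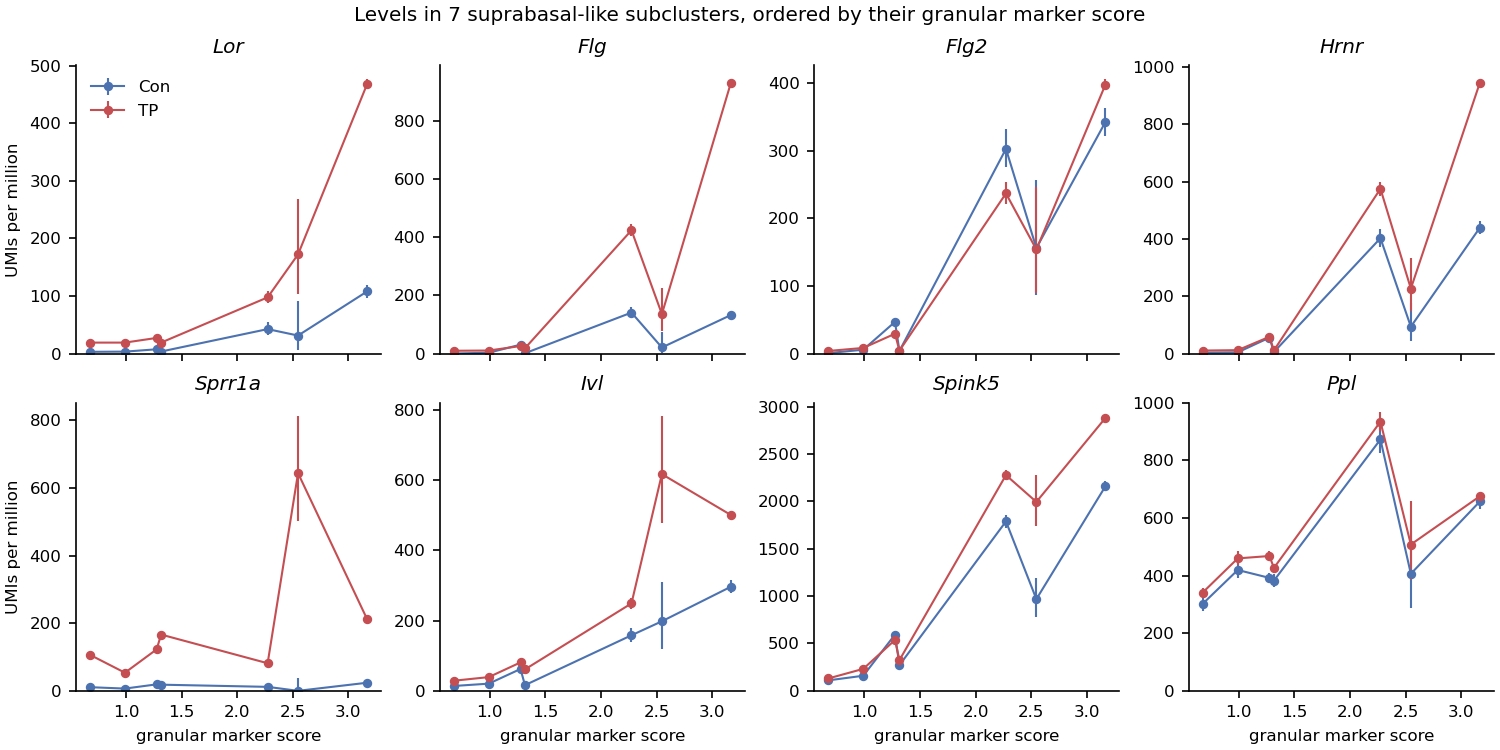
Levels of 8 genes (y axis, CPM, each panel with its own scale from 0) in the 7 suprabasal-like subclusters, placed by their granular marker score (x axis) in Con (blue) and TP (red), with exact 95% counting intervals. Lor, Flg and Hrnr reach their highest values in TP in the subcluster of highest score (468, 933 and 945 CPM), the lines of Flg2 cross, Sprr1a in TP is above Con also at low scores, and Ppl is nearly the same in both libraries. The wide bars belong to the small subcluster 46.

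The Sprr genes were also higher in TP in the lower suprabasal-like clusters. There the 15 genes together were at 18.4 CPM in Con and 219 CPM in TP, a ratio of 11.9 (10.04 to 14.2), next to 9.95 (8.92 to 11.1) in the upper cluster, intervals that overlap. In cluster 2, a lower cluster led by Krt1, Clca3a2 and Krt10, Sprr1a was at 14.2 CPM in Con (70 UMIs) and 153 CPM in TP (2800 UMIs), and Sprr1b at 6.06 CPM (30 UMIs) and 70.5 CPM (1287 UMIs). In cluster 14, the other lower cluster, Sprr1a was at 5.86 and 84.9 CPM. Sprr2h had 0 UMIs in Con and 58 in TP over both lower clusters. Genes of the upper layers were low here. Spink5 was at 193 and 254 CPM (ratio 1.32), Hrnr at 6.41 and 11.9 CPM, and Flg at 1.49985 and 15.1 CPM (ratio 10.1, 5.56 to 20.4), where dermal papilla-like cells had Hrnr at 2.57 and 11.2 CPM and Flg at 0.885 and 9.39 CPM. Flg2 was at 5.32 and 5.42 CPM, with 6.16 CPM in dermal papilla-like TP cells.

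In upper hair follicle-like cells the 48 genes together were 1.87-fold higher in TP (1.82 to 1.92). The minimum was met by 16 of the 48 genes. Past 2-fold in favour of TP were 8 of these, Lor, Sprr2h, Sprr1b, Sprr1a, Lce3c, Flg, Hrnr and Casp14, and 0 were lower, where 2.24% and 3.67% of all 10460 genes were. With TMM factors 11 were higher (3.27% of all genes). Sprr2h had 0 UMIs in Con and 80 in TP in these cells, so it met the minimum through TP alone and had to differ. Lce3c, a sparse gene, met it almost wholly through TP and had to differ too. Flg was at 93.1 CPM in Con and 285 CPM in TP (ratio 3.06, 2.696 to 3.49), and Casp14 at 100.5 and 214 CPM (2.13, 1.88 to 2.42). The 71 TP cells with the most Flg held 96.6% of its UMIs there, and in Con all 267 came from 2.74% of the cells. Casp14 was spread more widely, over 14.3% of Con and 29.2% of TP cells, and the counting interval of its ratio lay above that in all suprabasal-like cells. Still, the 71 TP cells with the most Casp14 held 59.7% of its UMIs, and counting intervals do not cover such unevenness. Lor and Hrnr, at 30.98 and 27.2 CPM in TP, compare with the 18.6 and 11.2 CPM of dermal papilla-like TP cells. The 6 upper hair follicle markers summed to 7362 CPM in Con and 11238 CPM in TP in these cells, and the 8 granular markers to 1940.1 and 3075 CPM.

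The small proline-rich genes of the follicle cells rested on few cells. Sprr1a was at 222 CPM in Con and 731 CPM in TP (3.29, 3.03 to 3.57), and Sprr1b at 9.42 and 220.0 CPM (23.4, 16.0020 to 35.5). The 71 TP cells with the most Sprr1b, of 1406, held 94.4% of its UMIs, and 1 cell had 175. For Sprr1a, which had a UMI in 29.7% of the TP cells, this share was 77.2%. With another clustering seed (seed 1) the ratios of Sprr1a and Sprr1b in the follicle cells were 2.15 and 6.14, while those in suprabasal-like cells were 12.2 and 15.8. Both genes were higher in TP under every clustering tried.

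In basal-like cells the 48 genes together were at 387 CPM in Con and 566 CPM in TP. Of 15 genes with the minimum, 10 were at least 2-fold higher and 0 lower (1.64% and 3.39% of all 11478 genes). With TMM factors 12 were higher (2.34% of all genes). The 10 were Lor, Sprr1b, Sprr1a, Ivl, Flg2, Flg, Hrnr, Klk7, Klk5 and Cdsn, and all 10 were also higher in TP in dermal papilla-like cells. In TP, Hrnr was at 13.1 CPM in basal-like and 11.2 CPM in dermal papilla-like cells, Flg at 9.601 and 9.39 CPM, Flg2 at 7.67 and 6.16 CPM, and Ivl at 26.5 and 20.7 CPM. After thinning to 1000 UMIs, a UMI of Hrnr was found in 1.72% of the basal-like and 1.72% of the dermal papilla-like TP cells, and one of Sprr1b in 1.08% and 0.861%. At 2000 UMIs these shares were 3.096% and 1.86% for Hrnr and 2.83% and 1.78% for Sprr1b. Lor was at 23.3 and 18.6 CPM, Klk7 at 34.5 and 27.00 CPM, and Sprr1a at 23.00 and 13.2 CPM in TP. At such levels free RNA and transcripts of the basal-like cells themselves cannot be told apart for the 10 genes. Ppl, the gene of highest level there, was at 208 CPM in Con and 205 CPM in TP.

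The share of cells with a transcript was compared in the upper cluster after each cell had been thinned to 1000 UMIs, since TP cells were deeper. A UMI of any of the 48 genes was then found in 79.2% (76.9 to 81.4) of Con cells and 94.2% (93.03 to 95.3) of TP cells, against 16.8% and 25.2% of dermal papilla-like cells. Without thinning the shares in the upper cluster were 99.3% and 100%. Spink5 was found in 53.3% and 74.2% of the upper suprabasal-like cells after thinning. Lor was found in 2.78% and 11.8%, against 0.2000% and 1.85% of dermal papilla-like cells, and Flg in 4.05% and 13.95%, against 0.114% and 1.46%. Flg2 was found in 9.76% (8.18 to 11.5) of Con and 15.04% (13.4 to 16.8) of TP cells. The cells of subcluster 26, more frequent in the Con part of the cluster, are included, and their part in these differences was not tested.

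**Figure D5:**
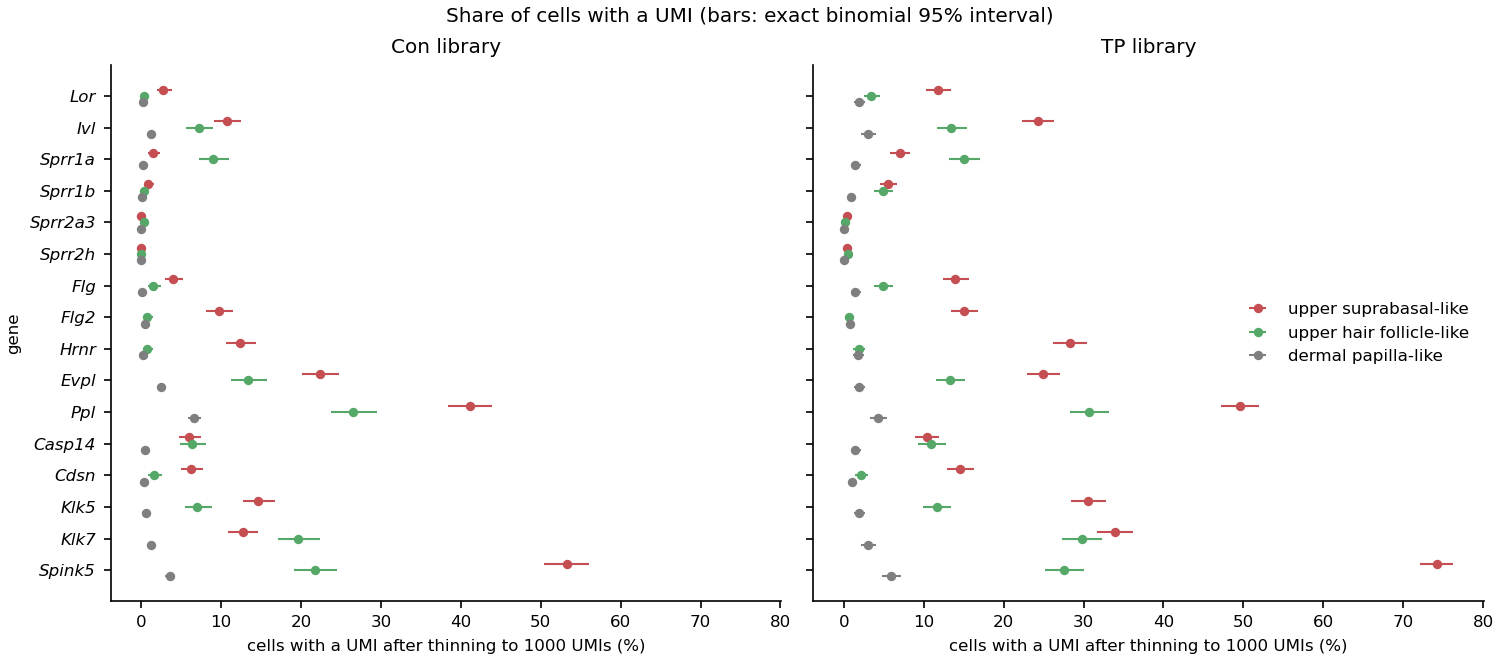
Share of cells with a UMI of each gene (x axis, %) after thinning every cell to 1000 UMIs, in upper suprabasal-like (red), upper hair follicle-like (green) and dermal papilla-like cells (grey, a measure of free RNA), for Con (left) and TP (right), with exact binomial 95% intervals. The highest grey point is Ppl in Con at 6.63%, and the red points of Lor, Flg, Hrnr and Klk7 lie higher in TP than in Con.

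The transcripts were unevenly spread over the cells of the upper cluster. The 5% of cells with the most Flg (63 Con and 88 TP cells) held 83.7% of the Flg UMIs in Con and 79.04% in TP, and the cell with the most had 936 in TP. For Lor these shares were 84.8% and 68.4%, and for Sprr1a 85.7% and 82.6%. Spink5 and Ppl were spread far more evenly, with 26.2% and 17.98% in Con and 21.7% and 16.6% in TP. Cells with 1 of the late genes often had another. With cells thinned to 2000 UMIs, Flg was found in 57.1% of the 282 TP cells with Lor and in 12.1% of the 1459 without it, and Hrnr in 78.7% and 29.5%. In Con, Flg was found in 27.4% of the 62 cells with Lor and in 5.34% of the 1162 without. Sprr1a went less with Lor (14.9% and 9.25% in TP) than with Sprr1b, as it was found in 47.6% of the 147 TP cells with Sprr1b and in 6.71% of those without.

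Across the 30 clusters of a library, with levels as log2(CPM + 1), the highest correlation of any pair of the 16 genes in TP was that of Klk5 with Spink5 (Pearson r = 0.97, 0.80 in Con). Lor followed Hrnr (0.89 in TP, 0.77 in Con), and Evpl followed Ppl (0.88 and 0.62). Sprr1a followed Sprr1b in TP (0.94) and less in Con (0.25). These values are descriptions, since clusters of 1 library share its free RNA and differ in depth. Over 18 classes and unnamed clusters in both libraries (36 points, 14792 genes compared), the 5 other genes most like the sum of the 48 were Acer1 (r = 0.94), a ceramidase gene, Abca12 (0.92), a lipid carrier of the granular layer, Fam57a (0.92), Tprg (0.91) and Sbsn (0.91), which codes for suprabasin. Abca12 and Sbsn were also among the markers. In the upper suprabasal-like cluster their ratios ran from 1.201 for Abca12 to 1.79 for Fam57a.

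Genes that work with the envelope were taken from 3 lists and compared in all suprabasal-like cells. Of 23 genes whose products cross-link, cut or otherwise act on envelope proteins, 19 met the minimum. For comparison, 2.16% of all genes were past 2-fold higher in these cells and 11.4% lower. Past 2-fold in favour of TP were 6 of them, Tgm1, Tgm5, Asprv1, Klk6, Klk8 and Klk13, and 0 were that much lower. Their median log2 ratio was 0.43, where that of all genes was -0.28. Klk6 had 1 UMI in Con and 631 in TP (12.1 CPM, a ratio of 222, 39.6 to 8763), so it met the minimum through TP alone and had to differ. Asprv1, whose protease cuts filaggrin, was at 117 and 408 CPM (3.49, 3.34 to 3.65), and Klk13 was at 2.19 and 7.48 CPM. The lowest ratios in that list were those of Padi3 (0.936), St14 (0.792) and Ctsl (0.695). All 20 transcription factor genes met the minimum, with 2 higher, Fosl1 and Cebpb, 0 lower and a median of 0.23, beside the same 2.16% and 11.4% of all genes. Fosl1, which codes for an AP-1 subunit, was at 6.67 CPM in Con and 56.9 CPM in TP (8.53, 7.11 to 10.3). Cebpb had a ratio of 2.16, and Trp63, Arnt and Dlx3 the lowest, at 0.8397, 0.767 and 0.544.

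Of 21 other genes of the epidermal differentiation complex, 18 met the minimum, and 4 were higher past 2-fold (Rptn, Crct1, Kprp and Pglyrp3) and 3 lower (Tchh, Tchhl1 and Crnn), beside 2.16% and 11.4% of all genes, with a median log2 ratio of 0.20. Crct1 was at 0.984 CPM in Con and 17.8 CPM in TP, a ratio of 18.1 (11.4 to 30.7), Kprp at 10.5 and 22.4 CPM, and 2310050C09Rik at 108 and 214 CPM. Tchh, for the trichohyalin of the inner root sheath, was at 330.2 CPM in Con and 124 CPM in TP in the suprabasal-like cells (0.376, 0.363 to 0.3897), S100a6 at 437 and 230.2 CPM, and Pglyrp4 at 12.1 and 11.01 CPM. Over all kept cells Tchh was at 1240 CPM in Con and 453 CPM in TP (0.365). The part of free RNA in its level in the suprabasal-like cells was not tested.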

How the data were processed

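Dorsal skin of 15 mice per group was pooled into 1 library each (10x 3′ chemistry). The deposited matrices hold raw UMI counts per gene and cell, which the authors made with Cell Ranger 8.0.1 against mm10. All else was computed from these counts. Cells were kept if they had 200 to 8000 genes and a mitochondrial share of 10% or less. Of these, 7.5%, those with the highest share of simulated doublets among their neighbours, were removed as doublets (3168 Con and 1503 TP). Cells were integrated and clustered in Seurat 5.3.0 (R 4.3.3, RPCA, 2000 variable genes without the 48 genes and the 3 related lists, Louvain, resolution 1, seed 0). Subclusters are the clusters of resolution 2. Clusters were named from marker lists at thresholds set after clusters had been seen. Of 30 clusters, 6 stayed unnamed.

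UMIs were summed per class and library and scaled to 1000000. Intervals are exact (Poisson, Clopper-Pearson, and conditional binomial for ratios; SciPy 1.17.1) and cover counting error only. With 1 library per group there is no test between groups. A ratio past 2-fold was counted where a gene had at least 50 UMIs. All genes with at least 200 UMIs were described singly. From each related list the 3 highest and 3 lowest ratios among genes with at least 200 UMIs were named, and the 5 genes of most similar pattern. The value of 1 gene that this rule names is not reported here. The 48 genes and all lists were chosen with earlier results of these data known. All 48 symbols matched RefSeq. On simulated counts with known changes, 95.2% of the intervals of 17593 genes over all cells covered the true ratio. These counts were drawn independently for each gene, as the intervals assume, so such coverage was built in. Coverage where UMIs gather in few cells was not tested. Alternatives were edgeR 4.0.16 TMM factors, other cell filters, clusterings, depths, minimums and class shares. Added after the data had been seen were the subtraction of the dermal papilla-like level, a window of 5000 to 20000 UMIs per cell, removal of the top 5% of cells, class shares at resolution 2 and 3 other clustering seeds.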

Additional observations from a re-analysis of the deposited data

Results flagged for a closer look

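The ratios of TP over Con of 3 genes went in opposite directions between cell sets, as judged by counting intervals that lay wholly above or wholly below 1. These sets are partly nested. The upper cluster held all Con cells of subclusters 18 and 31 and 85.6% of those of subcluster 26, so a ratio there also depends on their shares. Flg2 had ratios of 1.88 in the upper suprabasal-like cluster, 1.16 in subcluster 18 and 6.33 in subcluster 16, the last from 1 UMI in Con with an interval of 1.03 to 261, and of 0.782 and 0.625 in subclusters 31 and 26. Evpl was lower in TP in subcluster 18 (0.894) and higher in the upper cluster (1.16), the lower clusters (1.23), the upper hair follicle-like cells (1.19) and subclusters 16, 11, 26, 12 and 31 (1.43, 1.29, 1.14, 1.102 and 1.17). In the upper cluster the direction of Evpl turned under some other clusterings, which are given below. Spink5 was lower in TP in subcluster 26 (0.904) and higher in the upper (1.97) and lower clusters (1.32), the upper hair follicle-like cells (1.41) and subclusters 16, 11, 12, 31, 46 and 18 (1.18, 1.46, 1.196, 1.27, 2.06 and 1.33). With 1 library per group these differences between cell sets were not tested.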

How the results depend on the processing

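No paired analysis was possible because each group is 1 library. Of 595 values of single genes recomputed, 301 stayed within their counting interval, 286 moved and 8 turned their direction: Ppl over all cells with Con class shares at resolution 1 (0.987) and 2 (0.959), and in the upper cluster Evpl at resolutions 0.5 (0.961) and 2 (0.894) and with seeds 1 (0.924) and 3 (0.916), and Ppl with seeds 1 (0.985) and 3 (0.961). In these 4 clusterings subcluster 26 lay almost wholly outside the upper cluster, and at resolution 2 subcluster 31 did too. For the 48 genes together, the ratio of 3.48 over all cells became 4.13 with TMM factors, 3.55 with doublets kept, 3.62 without the deepest 1% of cells, 1.96 and 2.13 with Con and TP class shares (1.51 and 1.62 at resolution 2), and 1.66 as a ratio of mean log values. In all suprabasal-like cells 2.29 became 2.91 (TMM), 1.299 (mean log), 2.17 (thinned), 2.04 (cells with at least 1% Krt1 and Krt10) and 2.36 (dermal papilla-like level subtracted), and stayed within its interval in the 6 other clusterings. In the upper cluster 2.44 became 3.13 (TMM), 1.26 (mean log), 2.34 (thinned), 2.34 (clustered with the 48 genes), 1.801 and 1.71 (resolutions 0.5 and 2), 1.73 and 1.75 (seeds 1 and 3), 2.41 (without the top 5% of cells) and 2.49 (dermal papilla-like level subtracted). Upper hair follicle-like cells gave 2.14 (TMM), 1.81 (resolution 2) and 1.698 (seed 1) for 1.87, and basal-like cells 1.66 (TMM) for 1.46. Without a minimum, genes past 2-fold higher numbered 30 over all cells, 21 in suprabasal-like and 20 in upper cells (9.49%, 2.55% and 2.80% of all genes), and lower ones 1 in suprabasal-like, 2 in upper, 1 in upper hair follicle-like and 1 in basal-like cells (24.1%, 24.6%, 18.3% and 18.5% of all genes), where 1 UMI was added to sparse counts. Shares of cells with a UMI of any of the 48 genes moved with depth: in the upper cluster to 92.8% and 99.1% at 2000 UMIs and 99.3% and 100% unthinned (Con and TP), and in upper hair follicle-like cells to 79.6% and 83.5% at 2000 UMIs. The cause of these moves was not tested.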

Other observations

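In inner root sheath-like cells, which cornify inside the follicle, Sprr1a was at 4.98 CPM in Con (143 UMIs) and 46.02 CPM in TP (466 UMIs), where dermal papilla-like cells had 3.19 and 13.2 CPM. The class joins 5 clusters that differ in size between the libraries, and 266 of the TP UMIs came from cluster 25, led by Prr9, S100a3 and Crym, where Sprr1a was at 5.08 and 98.7 CPM. In the other 4 clusters it was at 2.74 to 7.82 CPM in Con and 14.9 to 36.9 CPM in TP. Myeloid-like cells had the 48 genes together at 891 CPM in Con, from 76 cells, and at 248 CPM in TP, from 236 cells, with Spink5 at 335 and 49.5 CPM and Hrnr at 95.1 and 15.96 CPM.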
